A study of Mus musculus with 10 samples.

Results

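The marrow niche is the set of cells that surrounds and feeds blood stem cells. Described here are 10 transcripts known from its stromal (non-blood) cells. They were counted in RNA from bone marrow that had been depleted of mature blood cells. The members were taken by gene symbol from the table of raw counts, with earlier results of these data known. They are Cxcl12, Kitl, Lepr, Pdgfra, Pdgfrb, Bglap, Sparc, Dcn, Alpl and Spp1, which are 10 of the 25178 genes in the table. The series set 5 female against 5 male mice of the inbred C57/BL6 strain at steady state, with 1 library per mouse. The labels name no treatment and no altered allele in either sex, and the sources used here do not give an age. Marrow cells that carried markers of mature lineages had been removed, which enriches blood stem and progenitor cells, so stromal transcripts were measured there as minor components.

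Marrow reticular cells, which express the leptin receptor Lepr, are known as the main source of the chemokine Cxcl12 and of stem cell factor, encoded by Kitl. Cxcl12 holds stem cells in the marrow through the receptor Cxcr4, and stem cell factor maintains them through the receptor Kit. Osteoblasts, the bone-forming cells, lie on the inner bone surface, and make osteocalcin (Bglap), alkaline phosphatase (Alpl) and much of the matrix protein osteonectin (Sparc).

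Each library held between 20754101 (female 1) and 24759687 (male 1) counted reads. Male 1 and male 2 stood apart on the first principal component, which took 38.4% of the variance over 1000 highly variable genes. The summed level of the stem and progenitor markers was between 844 and 1058 counts-per-million (CPM) in females and between 680 and 987 CPM in males, led by Myb (mean 287 CPM) and Kit (mean 264 CPM). Red cell markers summed to between 3671 and 7896 CPM in females and between 9839 and 46607 CPM in males, with no overlap. Mature neutrophil markers lay between 286 and 1014 CPM in females and between 233 and 9132 CPM in males, highest in male 1. The part of these cells in the sex comparison was not tested. Every gene in the table had at least 1 read, so a listed marker without reads would be missing from it. The table held 8 of 10 listed osteoclast markers, 5 of 6 cartilage markers and 5 of 6 skeletal muscle markers. Skeletal muscle markers summed to at most 0.727 CPM and none of them passed the filter on low counts.

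All 10 members were detected in every library and passed the filter, with between 201 reads (Pdgfra) and 21617 reads (Sparc) over the 10 libraries. Together they took between 117 (male 3) and 379 (female 1) CPM of the unscaled library totals. Per length of all annotated exons of a gene, as transcripts-per-million (TPM, mean ± SD over the 10 libraries), Bglap was at 90.2 ± 74.1 and Sparc at 60.2 ± 48.0. These were the most abundant members. Cxcl12 followed at 16.7 ± 10.4, Spp1 at 7.39 ± 2.82, Pdgfrb at 5.48 ± 1.79, Dcn at 1.88 ± 1.25 and Alpl at 1.60 ± 1.23. Lepr at 0.996 ± 0.675, Kitl at 0.756 ± 0.588 and Pdgfra at 0.204 ± 0.0695 were the lowest. This order rests on that exon length, and for Bglap also on the split of reads with its close copy Bglap2. It was not the same in every mouse. Bglap was above Sparc in 8 of 10 libraries, Sparc above Cxcl12 in 8, and Spp1 above Pdgfrb and Dcn above Alpl in 7 each, and the SDs of these neighbours overlap. Kitl was above Pdgfra in 10 of 10. On the same per-length scale Kit, the receptor for stem cell factor, was at a mean of 70.3 TPM and Cxcr4, the receptor for Cxcl12, at 90.0 TPM.

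The members varied between mice far more than most genes did. The coefficient of variation of CPM over the 10 libraries was 79.9% for Bglap, 76.7% for Sparc, 75.5% for Alpl, 74.3% for Kitl, 64.6% for Dcn, 63.5% for Lepr and 61.2% for Cxcl12, against a median of 19.3% over the 14674 genes tested. Counting error alone gives 4.33% for Bglap and 15.0% for Kitl at these depths. Spp1 (46.4%), Pdgfra (30.9%) and Pdgfrb (28.6%) varied less, and for Pdgfra counting error alone gives 22.3%. Bglap spanned 15.8-fold from its lowest to its highest library, Kitl 8.64-fold, Lepr 7.99-fold, Cxcl12 5.81-fold and Pdgfrb 2.29-fold.

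**Figure D1:**
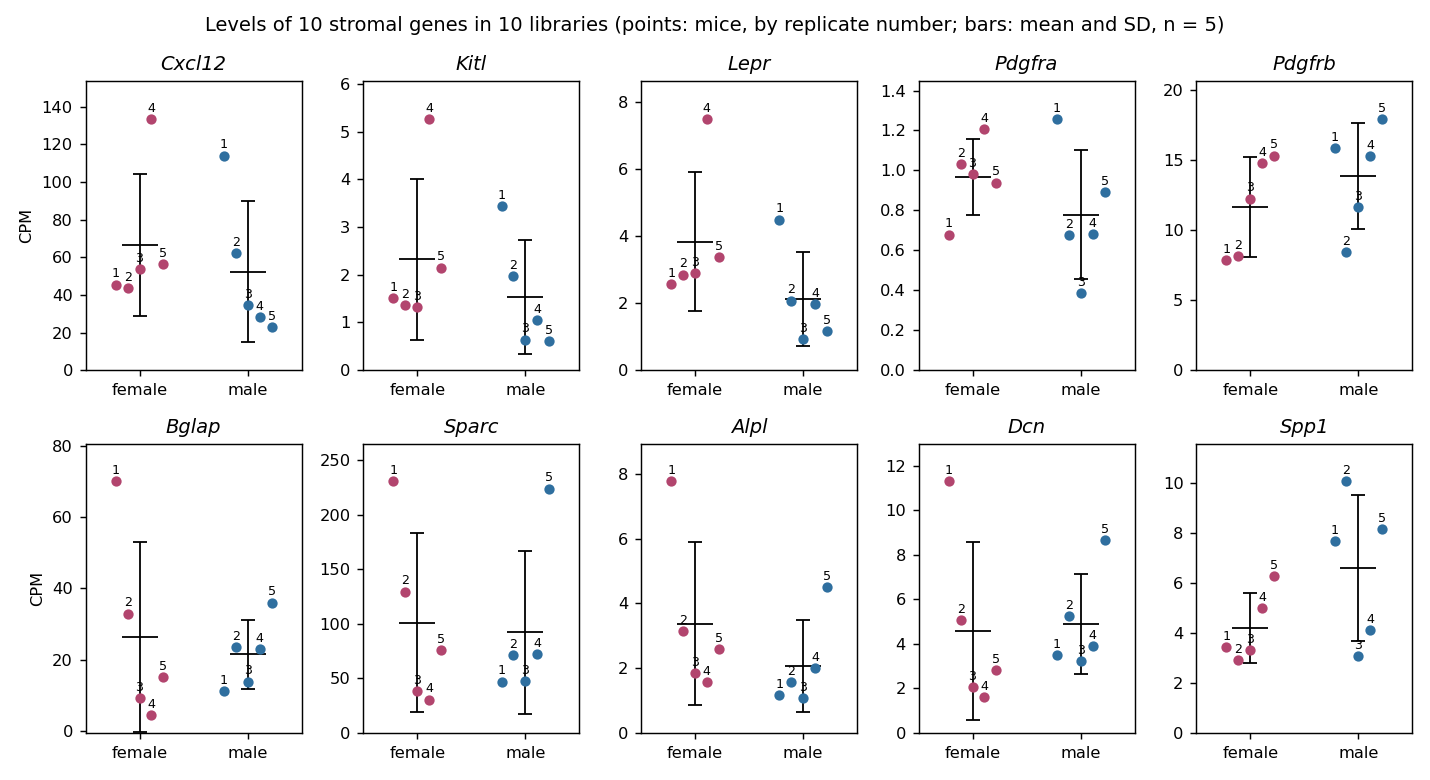
CPM of each of the 10 members (linear axis, 1 panel per gene) in every library, as points numbered by mouse within each sex, with black bars for the mean and SD (n = 5). The sexes overlap for every member, and single mice stand high: female 4 and male 1 for Cxcl12, Lepr and Kitl, and female 1 and male 5 for Sparc and Alpl.

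Cxcl12, the chemokine that retains stem cells in marrow, lies at chr6:117168535-117181367 (GRCm38). In females 1 to 5 it was at 45.5, 43.8, 53.6, 134 and 56.3 CPM. In males 1 to 5 it was at 114, 62.2, 34.4, 28.3 and 23.0 CPM. Female 4 and male 1 were the highest libraries, the sexes overlapped, and the other females lay within a narrow band while the males did not. The female mean was 66.6 ± 37.9 CPM and the male mean 52.4 ± 37.6 CPM (SD over 5 mice, as in all such values below). The log2 fold change of females against males was 0.35 (SE 0.44, 95% interval -0.62 to 1.31, adjusted p = 0.695, edgeR quasi-likelihood test with Benjamini-Hochberg adjustment over all 14674 genes tested). Without female 4 it was -0.07, without male 1 it was 0.85, and without male 1 and male 2, the libraries that stood apart, it was 1.22 (edgeR adjusted p = 0.824). In bulk RNA, fewer cells of a type and less RNA per cell cannot be told apart, here and in what follows.

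Kitl, which encodes the ligand of Kit, lies at chr10:100015630-100100416. It was at 1.5, 1.36, 1.32, 5.27 and 2.15 CPM in females 1 to 5 and at 3.44, 1.97, 0.640, 1.04 and 0.610 CPM in males 1 to 5, from 13 to 118 reads per library. Female 4 and male 1 were again highest. The difference between sexes was 0.59 (SE 0.53, adjusted p = 0.594, edgeR), with a 95% interval of -0.57 to 1.75. It was 0.04 without female 4, 1.13 without male 1 and 1.58 without male 1 and male 2 (edgeR adjusted p = 0.665). Kitl reads were 3.10% ± 0.646 of Cxcl12 reads (SD, n = 10 libraries), from 1.86% in male 3 to 3.94% in female 4, a 2.12-fold span where Cxcl12 itself spanned 5.81-fold and Kitl 8.64-fold.

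Lepr, the leptin receptor that marks reticular cells, lies at chr4:101717404-101815352. It was at 2.57, 2.85, 2.91, 7.5 and 3.36 CPM in females 1 to 5 and at 4.49, 2.08, 0.939, 1.96 and 1.17 CPM in males 1 to 5. Female 4 was highest in its sex, as was male 1, and male 1 was the only male above any female. The difference of Lepr was 0.85 on the log2 scale (SE 0.43, 95% interval -0.09 to 1.78, adjusted p = 0.506, edgeR), which did not pass the test. It was 0.45 without female 4, 1.31 without male 1 and 1.48 without male 1 and male 2 (edgeR adjusted p = 0.455). Its reads were 5.12% ± 1.37 of Cxcl12 reads over the 10 libraries.

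Pdgfra and Pdgfrb encode the receptors for platelet-derived growth factor, which are carried by mesenchymal progenitors and pericytes. Pdgfrb, at chr18:61045150-61085061, was the steadiest member. It was at 7.86, 8.13, 12.3, 14.8 and 15.3 CPM in females 1 to 5 and at 15.9, 8.46, 11.7, 15.3 and 18.0 CPM in males 1 to 5. The sexes covered nearly the same range, and the difference was -0.25 (SE 0.24, 95% interval -0.77 to 0.28, adjusted p = 0.613, edgeR). It ran from -0.38 without male 2 to -0.13 without female 1.

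Pdgfra, at chr5:75152292-75198215, had 9 to 30 reads per library and was the least counted member. It was at 0.679, 1.03, 0.983, 1.21 and 0.939 CPM in females 1 to 5 and at 1.26, 0.675, 0.384, 0.682 and 0.892 CPM in males 1 to 5. Both extremes were males, and the difference was 0.31 (SE 0.31, 95% interval -0.36 to 0.98, adjusted p = 0.615, edgeR). It was 0.14 without male 3, 0.55 without male 1 and 0.57 without male 1 and male 2. The annotation places 456 bases of its exons (4.55%) under the antisense gene Gm42802, and no source used here says whether the counting used strand, so reads of the 2 genes there cannot be told apart.

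Bglap encodes osteocalcin, the bone hormone and matrix protein of mature osteoblasts, at chr3:88383501-88384464. Its close copies Bglap2 (chr3:88377736-88378699) and Bglap3 (chr3:88368616-88372743) lie beside it on the same strand. The coding sequences of Bglap and Bglap2 from GENCODE vM21 are shown because reads from them are hard to assign. Capitals mark the 4 of 288 bases at which Bglap2 differs from Bglap.
Bglap: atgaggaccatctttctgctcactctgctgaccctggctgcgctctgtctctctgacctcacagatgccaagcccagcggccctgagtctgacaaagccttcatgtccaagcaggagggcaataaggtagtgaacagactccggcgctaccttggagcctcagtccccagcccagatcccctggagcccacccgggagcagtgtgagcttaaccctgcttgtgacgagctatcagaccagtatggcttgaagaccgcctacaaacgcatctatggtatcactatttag
Bglap2: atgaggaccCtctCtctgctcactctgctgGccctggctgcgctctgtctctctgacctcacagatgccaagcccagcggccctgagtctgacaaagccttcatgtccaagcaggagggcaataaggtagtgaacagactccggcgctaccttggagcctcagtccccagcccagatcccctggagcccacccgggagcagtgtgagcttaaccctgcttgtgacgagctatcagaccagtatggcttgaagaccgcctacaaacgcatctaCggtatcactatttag
The longest stretch that they share is 241 bases, and their identity is 98.6%, so the split of reads between Bglap and Bglap2 is uncertain. Bglap3 differs from Bglap at 13 bases (95.5% identity) and had 7 reads in all, with 0 to 2 per library.

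Bglap was at 70.0, 32.9, 9.31, 4.42 and 15.1 CPM in females 1 to 5. It was at 11.1, 23.5, 13.9, 23.0 and 36.0 CPM in males 1 to 5. Female 1 was the highest library and female 4 the lowest, so the females spanned the whole range and enclosed every male. The female mean was 26.4 ± 26.7 CPM and the male mean 21.5 ± 9.77 CPM, a log2 fold change of 0.29 (SE 0.61, 95% interval -1.04 to 1.62, adjusted p = 0.812, edgeR). Without female 1 it was -0.47. Bglap2 reads were 52.2% ± 5.53 of Bglap reads over the 10 libraries, and that share stayed between 41.9% and 61.6% while Bglap itself varied 15.8-fold.

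Sparc encodes osteonectin, a collagen-binding matrix protein of bone that platelets and endothelium also carry, at chr11:55394500-55423183. It was at 231, 130, 38.6, 30.6 and 76.2 CPM in females 1 to 5 and at 47.2, 71.1, 47.2, 72.4 and 224 CPM in males 1 to 5. Female 1 and male 5 stood well above the next mouse of their sex. The difference was 0.13 (SE 0.58, 95% interval -1.13 to 1.40, adjusted p = 0.918, edgeR). It was -0.42 without female 1 and -0.04 without male 1 or without male 3.

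Dcn encodes decorin, a small proteoglycan that binds collagen fibrils, at chr10:97479609-97518143. It was at 11.3, 5.08, 2.05, 1.61 and 2.82 CPM in females 1 to 5 and at 3.48, 5.24, 3.24, 3.89 and 8.68 CPM in males 1 to 5. As for Bglap, female 1 was highest and female 4 lowest, and the difference was -0.11 (SE 0.49, 95% interval -1.17 to 0.96, adjusted p = 0.922, edgeR). It was 0.20 without male 5, 0.11 without female 4, 0.08 without female 3 and 0.03 without female 5.

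Alpl encodes the alkaline phosphatase that osteoblasts use to mineralise matrix, at chr4:137741733-137796384. It was at 7.76, 3.14, 1.84, 1.56 and 2.58 CPM in females 1 to 5 and at 1.17, 1.56, 1.07, 2.0 and 4.50 CPM in males 1 to 5. Female 1 and male 5 stood above the rest of their sex, and the difference was 0.71 (SE 0.50, 95% interval -0.37 to 1.79, adjusted p = 0.527, edgeR). It was 0.15 without female 1, 1.21 without male 5 and 0.42 without male 1 and male 2.

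Spp1 encodes osteopontin, a phosphoprotein made by osteoblasts and also by macrophages and osteoclasts, at chr5:104435118-104441050. It was at 3.44, 2.93, 3.33, 5.00 and 6.30 CPM in females 1 to 5 and at 7.68, 10.1, 3.07, 4.13 and 8.17 CPM in males 1 to 5. Males 2, 5 and 1 were above every female, while males 3 and 4 lay within the female range. The difference of Spp1 was -0.65 (SE 0.33, 95% interval -1.36 to 0.06, adjusted p = 0.506, edgeR) and did not pass the test. It was -0.28 without male 1 and male 2. The exons share 309 bases (18.8%) with Gm42793 on the same strand, a gene not analysed here.

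The test of sex called 0 of the 10 members at an adjusted p under 0.05 with edgeR, where 0.0545% of all genes tested were called (0.0204% higher and 0.0341% lower in females), and DESeq2 also called 0. At an unadjusted p under 0.05 edgeR called 0 of 10, where 9.17% of all genes were. No member had all females above or all below all males, where 1.93% of all genes did (1.06% above and 0.865% below). The fitted difference was positive for 7 members and negative for 3, with a median of 0.30, against 7041 positive and 7633 negative genes and a median of -0.01 over all genes tested. The intervals above are wide: for Cxcl12 a female level of up to 1.31 log2 units above the male level, or 0.62 below it, lies within the interval.

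**Figure D2:**
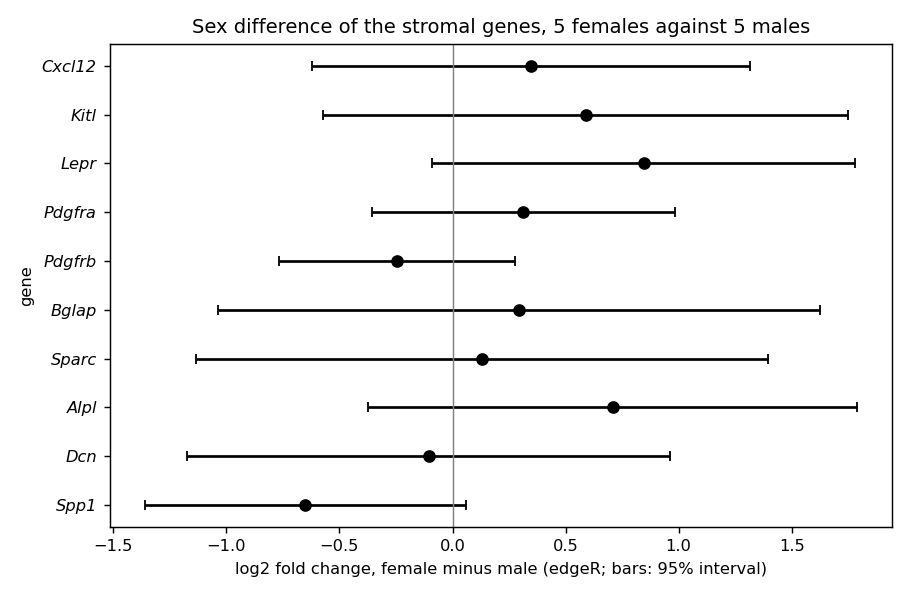
Log2 fold change of females against males for each of the 10 members (edgeR, n = 5 per sex), with the 95% interval as a bar and 0 marked. Every interval crosses 0, with fitted values from -0.65 (Spp1) to 0.85 (Lepr) over all 10 libraries.

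The variation between mice was not the same for all members. Some of them went together over the 10 libraries and were placed in 2 sets, though not every pair within a set passed the test below. Pdgfra, Pdgfrb and Spp1 were placed in neither. Cxcl12, Kitl and Lepr formed one set and Bglap, Sparc, Dcn and Alpl the other. The sets were drawn after these relations were seen. Pearson's r of log2 CPM was computed for all 45 pairs of members, with permutation p-values from 100000 resamples, adjusted over the 45 pairs. Of these, 9 had an adjusted p of r under 0.05, with r between 0.77 and 0.95, and 8 of the 9 also passed by Spearman's rho. High values of r are not rare over 10 libraries. Of 14673 genes, the one ranked 100th in likeness had r = 0.80 with Cxcl12 and 0.78 with Bglap. The share of all gene pairs that would pass is not given here. The points share libraries, depth and scaling.

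In the niche factor set, Cxcl12 and Kitl had r = 0.952 and rho = 0.939 (permutation p of r 8.0e-05, adjusted 0.0012). Lepr and Kitl had r = 0.942 and rho = 0.867 (permutation p 0.00023, adjusted 0.00207), and Cxcl12 and Lepr had r = 0.870 and rho = 0.830 (permutation p 0.00184, adjusted 0.0118). Among the 14673 other genes tested, Cxcl12 was the gene most like Kitl, and Kitl was the gene most like Lepr. Kitl ranked 5th in likeness to Cxcl12. Lepr and Pdgfra also passed (r = 0.793, adjusted permutation p 0.0379), but this call failed in 7 of the 10 fits with a library removed. The call for Cxcl12 and Lepr was lost only without female 4 (r = 0.790, adjusted permutation p 0.0599).

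In the bone set, Bglap and Dcn had r = 0.952 and rho = 0.939 (permutation p of r 5.0e-05, adjusted 0.00112). Bglap and Sparc had r = 0.933 and rho = 0.952 (permutation p 3.0e-05, adjusted 0.00112), and Dcn and Sparc had r = 0.932 and rho = 0.818 (permutation p 0.00011, adjusted 0.00124). Sparc and Alpl had r = 0.888 (permutation p 0.00062, adjusted 0.00465). Bglap and Alpl had r = 0.773 (adjusted permutation p 0.0414), a call that failed in 8 of the 10 fits with a library removed, and Dcn and Alpl had r = 0.743 (adjusted permutation p 0.0618). Dcn ranked 3rd and Sparc 7th of 14673 genes in likeness to Bglap.

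These relations rested in part on the mice at the extremes. Without the 2 libraries farthest from the median, the r of the 9 pairs was between 0.56 and 0.91, and only Bglap and Sparc (r = 0.910) still passed. After each sex was centred on its own mean, r of the 9 pairs was between 0.75 and 0.96. Without male 1 and male 2, which stood apart on the first principal component, Cxcl12 and Kitl had r = 0.945 and Bglap and Dcn r = 0.962.

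Between the sets all 12 values of r were negative, from -0.65 (Cxcl12 and Bglap) to -0.12 (Lepr and Alpl), and none passed the test. For Cxcl12 and Bglap, rho was -0.576 (adjusted permutation p of r 0.152), and r was -0.254 without female 4 and male 1. The proportion of Bglap to Cxcl12 is made of the same values, so it gives them for single mice and adds no test. Bglap CPM was 1.57 times that of Cxcl12 in male 5 and 1.54 times in female 1, but 0.0331 times in female 4 and 0.0975 times in male 1, a 47.3-fold span. Each end thus held a mouse of each sex. Pdgfrb and Spp1 passed in no pair with another member, with r between -0.48 (Bglap and Pdgfrb) and 0.36 (Pdgfrb and Spp1).

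**Figure D3:**
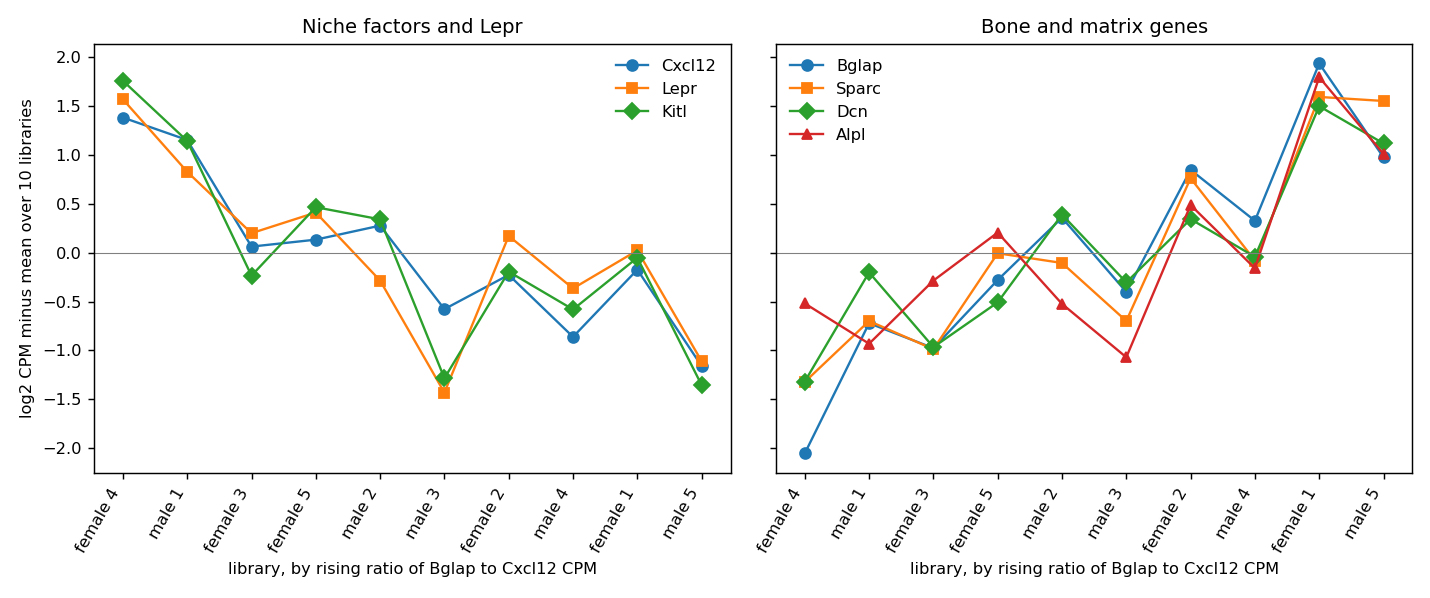
Log2 CPM of each member minus its mean over the 10 libraries, with libraries in order of the ratio of Bglap to Cxcl12, which fixes the slope of those 2 genes. Kitl and Lepr lie near Cxcl12 in the left panel, and Sparc, Dcn and Alpl near Bglap in the right panel, with female 4 at the low end of the ratio and male 5 at the high end.

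**Figure D4:**
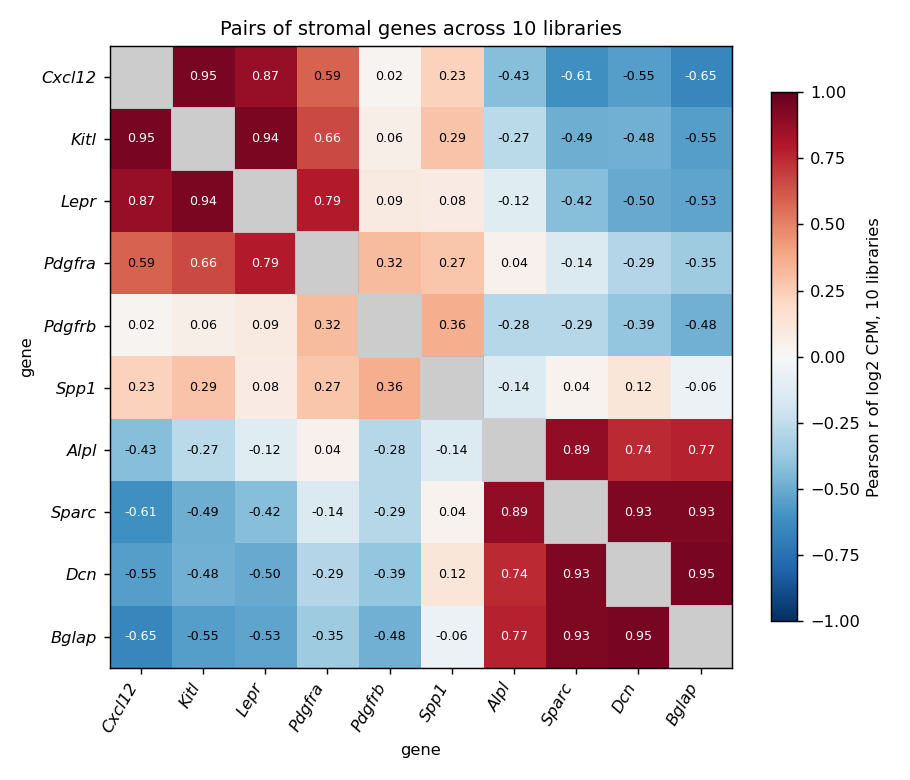
Pearson's r of log2 CPM over 10 libraries for the 45 pairs of members, as a coloured grid. The blocks of Cxcl12, Lepr and Kitl (0.87 to 0.95) and of Bglap, Dcn, Sparc and Alpl (0.74 to 0.95) are positive, and the 12 values between them are negative.

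The genes most like each member over the 10 libraries, by r of log2 CPM among 14673 genes, are given as a description. For Cxcl12 they were Gas6 (r = 0.968), the ligand of the TAM receptors, Esm1 (r = 0.960), the proteoglycan endocan, and Serping1 (r = 0.957), the C1 inhibitor of complement. Chrdl1, an antagonist of bone morphogenetic proteins, ranked 3rd for Lepr (r = 0.927) and for Kitl (r = 0.933), and Abi2 ranked 2nd for Lepr (r = 0.936). For Bglap they were Bglap2 (r = 0.992), which shares its sequence, the prostacyclin synthase gene Ptgis (r = 0.957), and Dcn.

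For Sparc the nearest were the collagen gene Col5a2 (r = 0.97), the gelatinase gene Mmp2 (r = 0.960) and Cpz (r = 0.953). Smpd3, a sphingomyelinase gene needed for bone mineralisation, was nearest to Alpl (r = 0.939), followed by Col5a2 (r = 0.922) and Ccn4 (r = 0.919). Besides Bglap2 (r = 0.968) and Bglap, Car3 was near Dcn (r = 0.960).

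The genes nearest to Pdgfrb were Nicn1 (r = 0.947), the progenitor receptor gene Flt3 (r = 0.942) and Tgfbr2 (r = 0.941), and its relation to the list of stem and progenitor markers was r = 0.800 and rho = 0.806 (permutation test, adjusted p of r 0.0790 over 110 relations). For Spp1 the nearest were Fbp1 (r = 0.971), Akr1c13 (r = 0.927) and the pseudogene Eif1-ps1 (r = 0.911). For Pdgfra, with a mean of 20.1 reads per library, they were Ncr1 (r = 0.891), Fbln1 (r = 0.890) and Gbp6 (r = 0.873).

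The mean log2 CPM of each of 11 cell type marker lists, without the members themselves, was set beside the 10 members. Of these 110 relations, 7 had an adjusted permutation p of r under 0.05. The share of all genes that would pass with these lists is not given here. The mean of the 6 other reticular stroma genes followed Cxcl12 (r = 0.939, rho = 0.879, adjusted permutation p 0.0066), Kitl (r = 0.896, adjusted permutation p 0.0147) and Lepr (r = 0.864, adjusted permutation p 0.0315). The mean of the 5 other osteoblast genes, which include Bglap2, followed Sparc (r = 0.946, rho = 0.915, adjusted permutation p 0.0022), Alpl (r = 0.933, adjusted permutation p 0.00697), Bglap (r = 0.887, adjusted permutation p 0.0147) and Dcn (r = 0.837, adjusted permutation p 0.0380). Single genes of the lists did not all follow, as given below. Spp1 had r = -0.162 with the same osteoblast genes, and the reticular genes had r = 0.579 with Pdgfra and 0.209 with Pdgfrb, none of which passed. None of the 7 passed without the 2 libraries farthest from the median of the list. Without female 4, 3 relations passed, and without male 1, 4 did.

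Markers of other cell types that are known to make some of these transcripts were measured in the same way. Sparc had r = -0.254 with the megakaryocyte markers, and Spp1 had r = 0.358 with the osteoclast and 0.272 with the macrophage markers. The osteoclast list used 5 genes, led by Itgb3 (mean 279 CPM), which megakaryocytes also carry, and Mmp9 (mean 53.6 CPM). Its genes Dcstamp, Oscar and Atp6v0d2, at means of 0.112, 0.112 and 0.0296 CPM, did not pass the filter. The list is therefore a weak measure of osteoclasts. Cxcl12 had r = 0.818 with the macrophage markers (rho = 0.770, adjusted permutation p 0.0575), which passed once each sex was centred (r = 0.852, adjusted permutation p 0.0106). Male 1 was highest for the macrophage markers, whose sum lay between 145 and 271 CPM in males and between 150 and 193 CPM in females. Most of that sum was 1 gene, Slc40a1 (mean 118 CPM), while Adgre1 had a mean of 4.92 CPM and C1qa of 3.91 CPM. The r used the mean of log2 CPM, in which each gene of the list counts once. Their part in the Cxcl12 values was not tested.

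The endothelial markers gave values that turned on male 1 and male 2, and were not alone in this. The list was led by Pecam1 (mean 52.6 CPM), while Cdh5 and Emcn had means of 1.16 and 0.753 CPM. Over all 10 libraries their r was 0.652 with Pdgfra, 0.610 with Lepr, 0.380 with Kitl and 0.258 with Cxcl12, and none passed. In the 8 libraries without those males, r with Pdgfra was 0.939 (adjusted permutation p 0.0154 over 110 relations). There it was 0.879 with Lepr (adjusted permutation p 0.115), 0.831 with Kitl (adjusted permutation p 0.165) and 0.731 with Cxcl12 (adjusted permutation p 0.233). The megakaryocyte markers also rose without those males. Their r went from 0.532 to 0.692 with Pdgfra and from 0.625 to 0.749 with Lepr. With Kitl it went from 0.443 to 0.629 and with Cxcl12 from 0.433 to 0.679. For the red cell markers, r with Cxcl12 went from 0.02 to -0.71. None of these megakaryocyte and red cell values passed. The part of endothelium or of the other cells in these values was not tested.

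The wider stromal genes, named by function in 6 lists, had 96 entries, of which 54 passed the filter. The test called 0 of the 54 (edgeR), where 0.0545% of all genes were called. At an unadjusted p under 0.05 (edgeR) there were 5 higher and 2 lower in females, against 3.76% and 5.41% of all genes. Of the 54, 37 were positive and 17 negative, with a median of 0.22. Over all genes tested, 7041 were positive and 7633 negative, with a median of -0.01. By list the median ran from -0.05 for 10 niche factors and 0.11 for 7 fat genes over 0.22 for 12 reticular and mesenchymal stem cell genes and 0.33 for 15 matrix genes to 0.53 for 7 bone genes and 0.69 for 3 pericyte genes.

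Igfbp5, which encodes a binding protein of insulin-like growth factors, had the smallest unadjusted p of the 54. Its mean was 22.4 ± 9.81 CPM among females and 9.54 ± 4.74 CPM among males, a log2 fold change of 1.23 (SE 0.33, edgeR adjusted p = 0.506). The others higher in females at an unadjusted p under 0.05 were Phex (1.63, SE 0.61), a peptidase gene of osteocytes, Grem1 (1.20, SE 0.47), an antagonist of bone morphogenetic proteins, Abcc9 (1.06, SE 0.36), a potassium channel subunit of pericytes, and the fibrillin gene Fbn1 (1.0, SE 0.42). Lower were Cebpd (-0.48, SE 0.20), a transcription factor gene of fat and myeloid cells, and Serpinf1 (-0.47, SE 0.20), which encodes a secreted antiangiogenic factor. The adjusted p of each was 0.506 (edgeR).

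The next by p in each list did not reach an unadjusted p under 0.05 (edgeR). Among fat genes Adipoq, the adiponectin gene that marrow reticular cells also express, had a mean of 4.12 ± 2.58 CPM among females and 1.90 ± 1.57 CPM among males (log2 fold change 1.11), and Fabp4 differed by 0.51 and Lipe by -0.09. Of the bone genes Ibsp, a sialoprotein gene, differed by 0.59 and Runx2, the osteoblast transcription factor, by -0.26. Among reticular genes the values were 0.82 for Cdh11, -0.88 for Nt5e and -0.40 for Thy1. The niche factor genes with the smallest p were Bmp4 (0.73), Gas6 (0.23), Flt3l (-0.12) and Igf1 (-0.34), and the other named genes were Igfbp4 (-0.29) and Notch3 (0.69).

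Likeness to Cxcl12 or Bglap was then set out for the same 54 genes. Of these, 15 were among the 100 genes most like Cxcl12, where 0.682% of all genes are, and 4 were among the 100 most like Bglap. Those near Cxcl12 were 5 of 10 niche factors, 4 of 7 fat genes, 4 of 15 matrix genes and 2 of 12 reticular genes, among them Vcam1, Foxc1, Adipoq and Lpl. Those near Bglap were Sp7 (r = 0.94), the osteoblast transcription factor, Lum (r = 0.91), a proteoglycan gene, Smpd3 (r = 0.78) and Bglap2. These genes were picked out after their values were seen. The sign of r differed between Cxcl12 and Bglap for 46 of the 54, where it did for 74.5% of all genes.

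Not every gene of bone or niche followed. Ibsp had r = 0.01 with Bglap and 0.53 with Cxcl12, and Runx2 had r = -0.27 with Bglap. Angpt1, a niche factor gene at 41.2 CPM, had r = 0.14 with Cxcl12. Adipoq was at 8.57 CPM in female 4 and 0.328 CPM in male 5, at the same ends as Cxcl12, while Sp7 was at 2.81 CPM in female 1 and at 0 in female 4, at the ends of Bglap.

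**Figure D5:**
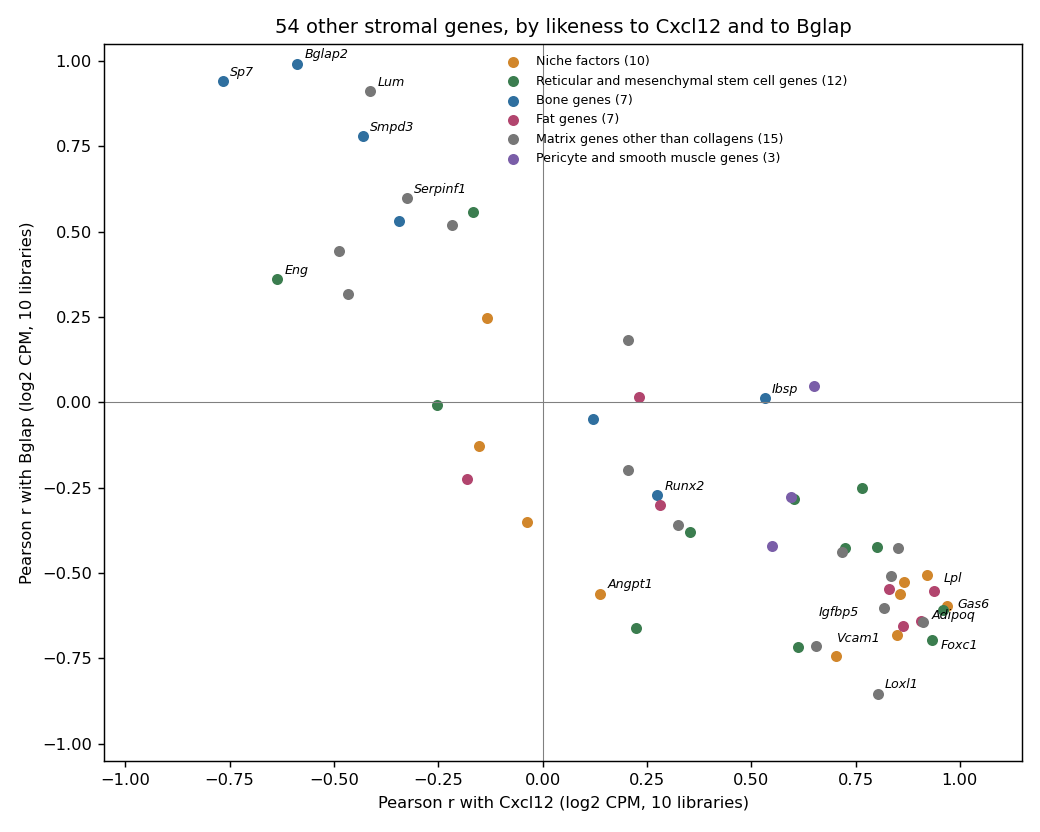
Pearson's r with Cxcl12 (horizontal) against r with Bglap (vertical) over 10 libraries for the 54 wider stromal genes tested, coloured by list. Niche factor and fat genes lie mostly at the right with negative r to Bglap, and Sp7, Lum, Smpd3 and Bglap2 at the top, and 46 of the 54 have opposite signs on the 2 axes.

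The receptors through which blood cells read these signals were themselves measured. Cxcr4 was at 65.9, 64.4, 61.7, 65.7 and 65.6 CPM in females 1 to 5 and at 96.0, 65.3, 71.5, 71.5 and 74.9 CPM in males 1 to 5. The females lay close together, and male 1 was highest. The difference was -0.23 (SE 0.10, edgeR adjusted p = 0.506). Kit averaged 280 ± 43.3 CPM among females and 249 ± 59.4 CPM among males, a difference of 0.17 on the log2 scale.

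The partner genes also include ligands, among them Pdgfa, Pdgfb and Pdgfd. Of the 15 partner genes tested, 0 were called by edgeR, where 0.0545% of all genes were. At an unadjusted p under 0.05 (edgeR), 2 were higher and 1 was lower in females, against 3.76% and 5.41% of all genes. Itgb3, an integrin chain that binds osteopontin and is abundant in megakaryocytes and osteoclasts, averaged 344 ± 64.2 CPM among females and 215 ± 48.0 CPM among males, with all females above all males, as for 1.06% of genes. Its log2 fold change was 0.68 (SE 0.17, edgeR adjusted p = 0.399). The megakaryocyte markers summed to between 1349 and 1723 CPM in females and between 1104 and 1374 CPM in males, and their part in the Itgb3 values was not tested. Cd44, a receptor for osteopontin, differed by -0.10.

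Promoters were searched because some of the members had been placed in 2 sets. RefSeq start sites on GRCm38.p6 were matched for 8 members, with 11 promoters of 250 bases before the start, and Dcn and Pdgfrb were not matched. The motifs, read on both strands, were TGTGGT for RUNX factors, CCCNNGGG for EBF factors, the TATA box TATAAA and the GC box GGGCGG. They are in 14.0%, 11.8%, 12.4% and 32.7% of 32851 promoters of the same length. The RUNX letters were in the promoters of Bglap (position -132 from the start) and Spp1 (position -128 from its first start), and in none of the others.

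The 2 promoters with the RUNX letters and that of Cxcl12, which had the most GC boxes, are shown 5′ to 3′ on the gene's own strand. For Bglap (chr3:88384467-88384716, minus strand) and Spp1 (chr5:104434861-104435110, plus strand) capitals mark the RUNX letters and TATAAA. For Cxcl12 (chr6:117168285-117168534, plus strand) they mark the 5 GC boxes, the last of which overlap.
Bglap: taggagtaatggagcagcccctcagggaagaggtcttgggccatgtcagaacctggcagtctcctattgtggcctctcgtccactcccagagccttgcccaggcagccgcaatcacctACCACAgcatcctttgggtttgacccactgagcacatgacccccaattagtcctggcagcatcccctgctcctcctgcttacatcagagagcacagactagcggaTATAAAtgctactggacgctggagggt
Spp1: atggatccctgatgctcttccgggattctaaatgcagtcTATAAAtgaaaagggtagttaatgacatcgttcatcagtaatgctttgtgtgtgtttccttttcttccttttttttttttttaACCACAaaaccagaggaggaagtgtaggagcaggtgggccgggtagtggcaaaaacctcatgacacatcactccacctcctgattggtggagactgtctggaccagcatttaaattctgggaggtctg
Cxcl12: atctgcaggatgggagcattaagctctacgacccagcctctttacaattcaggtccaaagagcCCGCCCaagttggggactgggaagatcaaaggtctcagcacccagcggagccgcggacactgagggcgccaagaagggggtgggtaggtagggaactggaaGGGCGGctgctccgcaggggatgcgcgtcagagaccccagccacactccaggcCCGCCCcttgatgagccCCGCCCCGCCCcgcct
The letters TATAAA begin at position -27 in Bglap and at position -211 in Spp1, the latter far from where a TATA box is usually found. Cxcl12 has 64.4% G and C and 14 CpG dinucleotides in the window, with neither RUNX, EBF nor TATA letters. The motifs did not divide the 2 sets. Kitl of the niche factor set has TATAAA at position -25 beside 3 GC boxes. The first start of Alpl, in the bone set, has 2 GC boxes, 68.4% G and C, 20 CpG dinucleotides and no RUNX or TATA letters. The second start of Alpl has the TATA letters, read on the other strand, at position -192 and no GC box. No EBF match was in any of the 11 promoters, and Sparc and Alpl of the bone set had no RUNX match. Bglap and Spp1, which both have the RUNX letters, had r = -0.06 over the libraries. Whether the letters bear on the relations was not tested. A match is a description of letters and not of binding.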

How the data were processed

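Lineage-depleted marrow RNA of 5 female and 5 male mice was sequenced in bulk, with 1 library per mouse. The authors deposited raw read counts per gene for the 10 libraries. The deposited normalized values (signal) equalled the count divided by 1 size factor per library (0.852 to 1.13) and were used only for that check. STAR, featureCounts and DESeq with GRCm38.p6 and mm10 are named per the submitters' processing notes without versions. The sources used here do not give the strand setting or the annotation release.

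The raw counts were tested with edgeR 4.0.16 (R 4.3.3): filterByExpr by sex, TMM scaling, robust quasi-likelihood fit on sex, Benjamini-Hochberg adjustment over 14674 genes, calls at an adjusted p under 0.05. CPM are on the TMM scale, and TPM used raw counts and exon lengths from GENCODE vM21, which also gave symbols for 25116 genes. Relations used log2 CPM (prior count 2) and scipy 1.17.1. DESeq2 1.42.0, a filter at 1 CPM in 5 libraries, no filter, other scalings, a replicate block and left-out libraries were alternatives. The statistical steps were tested on simulated data.

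The members and lists were chosen with earlier results of these data known. Of each wider list the 2 genes of smallest p per direction are named, and for each member the 3 genes of highest r, predicted genes left out. For 1 partner gene that this rule names, the result is not reported here. SDs are over mice. Counting intervals cover counting error only.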

Additional observations from a re-analysis of the deposited data

Results flagged for a closer look

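In 6 of 20 groups (10 members in each sex, 5 mice per group) the highest mouse stood apart from the others: its gap to the nearest mouse, divided by the range of the group, was above the 95% critical value of Dixon's test, 0.71 for 5 samples. Chance flags about 1 group in 20 only where the values of a group are normally distributed. The gaps were taken on linear CPM, all 6 flags were of the highest mouse, and a log scale was not tried. Several of these members go together over the libraries, so the 6 groups are not independent of each other.

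Female 4 stood apart for the 3 niche genes. Cxcl12 was at 134 CPM there with the nearest female at 56.3, Lepr at 7.5 CPM with the nearest at 3.36, and Kitl at 5.27 CPM with the nearest at 2.15.

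The other 3 were bone genes in other mice. Sparc was at 224 CPM in male 5 with the nearest male at 72.4. Alpl was at 7.76 CPM in female 1 with the nearest female at 3.14, and at 4.50 CPM in male 5 with the nearest male at 2.0.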

How the results depend on the processing

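No member was called in any setting. Of 89 log2 fold changes of members under settings other than leaving out 1 library, 84 kept their direction, and of 100 with 1 library left out, 91 did. The values that turned were Bglap at -0.26 and Sparc at -0.028 with the replicate block, Sparc at -0.18 with male 1 and male 2 left out, Bglap at -0.21 with female 1 and male 5 left out, and Dcn at 0.0083 with female 4 and male 1 left out, the last 2 chosen after seeing the data. With 1 library left out, Bglap ran from -0.47 to 0.57, Sparc from -0.42 to 0.77, Dcn from -0.76 to 0.20, Cxcl12 from -0.072 to 0.85, Kitl from 0.04 to 1.13, Lepr from 0.45 to 1.31 and Alpl from 0.15 to 1.21. With male 1 and male 2 left out, Cxcl12 was at 1.22, Kitl at 1.58 and Lepr at 1.48, none of them called. The cause was not tested. Over all genes edgeR called 3 higher and 5 lower in females. DESeq2 called 39 higher and 21 lower, the replicate block 1 higher, and the fit without male 1 and male 2 called 7 higher, while with 1 library left out 2 to 5 were higher (5 without male 2) and 4 to 5 lower. Same-numbered mice were not paired: their deviations had r from -0.30 to -0.01. Relations were tried in settings chosen after seeing the data. Of pairs of members, 9 passed, 7 to 11 with 1 library left out, and 1 without the 2 farthest libraries. Of relations to marker lists, 7 passed, 3 to 7 with 1 library left out and 0 without the 2 farthest. Pdgfra, with 9 to 30 reads per library, was lost under the 1 CPM filter, and for it, Kitl and Lepr the depth limits what can be seen.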
